A study of Mus musculus with 12 samples.

Results

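The pericentral genes of the liver lobule were followed across the livers of 12 mice: Glul, Slc1a2, Oat, Cyp2e1, Cyp1a2, Rgn, Axin2, Lgr5, Rnf43 and Tbx3. They were taken by symbol from a deposited table, which held 1 entry for each of the 10 genes among 19852 genes in all. The values are RPKM, a read count divided by transcript length and by the size of the library. The groups, of 3 livers each, were female ARE-Del, female wild-type (WT), male ARE-Del and male WT mice, with the WT mice described as control littermates. All were C57BL/6 and 20 weeks old, and all libraries were made from total liver RNA. The ARE-Del allele lacks the AU-rich element at the 3′ end of the interferon-gamma gene (Ifng), an instability element of the transcript, so that these mice express interferon-gamma chronically, per the series title. The labels name no promoter or cell type that limits the allele, and the number of deleted copies per mouse is not clear from them. Nothing in the labels says how the livers fall over litters, so p-values measure the spread between these livers.

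Blood crosses the lobule from the portal tract to the central vein, and hepatocytes differ along that path. Those next to the central vein receive Wnt ligands and R-spondin from the vein's endothelium, which keep β-catenin active and with it the genes of this zone. The innermost layer takes up glutamate and turns ammonia into glutamine, and the wider pericentral zone holds much of the liver's cytochrome P450 capacity. Periportal hepatocytes carry out most urea synthesis and gluconeogenesis.

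Summed RPKM was 173476 to 208647 per library. Sequencing depth, estimated from ratios between low values, was 0.905 to 1.46 relative to female WT 1, and read totals were not used here. Libraries of a group correlated at 0.988 to 0.994 over the 10568 genes that were tested. Ifng was at 0.0742 to 0.238 RPKM in ARE-Del livers and at 0 to 0.0382 RPKM in WT livers, with no overlap. The library labelled female ARE-Del 2 had Xist at 0.0456 RPKM, against 32.95 to 45.6 RPKM in the other 5 female libraries, and the male-specific Ddx3y at 0. Where leaving out this library changed a call of a pericentral gene, this is said beside it. Macrophage and Kupffer cell markers rose in both sexes, 6 of 6 in each. Their summed level was 309 to 421 RPKM in female ARE-Del livers and 63.1 to 112 RPKM in female WT livers. In males it was 179 to 228 RPKM in ARE-Del livers and 44.5 to 78.4 RPKM in WT livers. Lymphocyte markers, of which 4 of 8 were tested, rose in 3 in females, or in 4 there if that library is left out, and in 4 in males. In all WT livers 6 of the 8 were under 0.5 RPKM. Testing needed 0.5 RPKM in 3 libraries, so some of those tested qualified only through ARE-Del livers. Their rise is not independent of that filter. Hepatocyte markers rose in 2 of 8 in each sex. Of all genes tested, 25.8% rose in females and 19.5% in males, so the hepatocyte counts are near that share. With median-of-ratios scaling 2 hepatocyte markers rose and 2 fell in females, and 0 rose and 1 fell in males. With quantile normalization the counts were 2 and 1 in females, and 1 and 0 in males. Of all genes tested, 16.9% rose and 19.3% fell in females under the first scaling, and 15.3% and 23.6% under the second. In males 11% rose and 10.5% fell under the first, and 8.73% and 10.9% under the second. The hepatocyte marker sum, mostly albumin, was 40690 to 44620 RPKM in female ARE-Del livers against 33030 to 34910 RPKM in female WT livers. It was 24120 to 32610 RPKM in male ARE-Del livers against 23700 to 25110 RPKM in male WT livers. No marker of these 3 lists was at 0 in all libraries. The part of these cells in the values of the pericentral genes was not tested.

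All 10 pericentral genes were detected in all 12 libraries, at very different levels. Cyp2e1 ranked between 12 and 35 among all genes by RPKM in a library, Rgn between 35 and 62, Cyp1a2 between 68 and 153, Oat between 81 and 222 and Glul between 126 and 203. Slc1a2 ranked between 1493 and 2340. The Wnt pathway genes were far lower, with Tbx3 ranked between 3897 and 6985, Rnf43 between 6037 and 8108, Axin2 between 7229 and 9363 and Lgr5 between 8678 and 10497. Bulk RNA does not show in which zone a transcript lies. Albumin and the other 7 hepatocyte markers were detected, and the pericentral position of the 10 genes is taken from general knowledge. In bulk tissue, fewer cells of a type and less RNA per cell cannot be told apart.

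**Figure D1:**
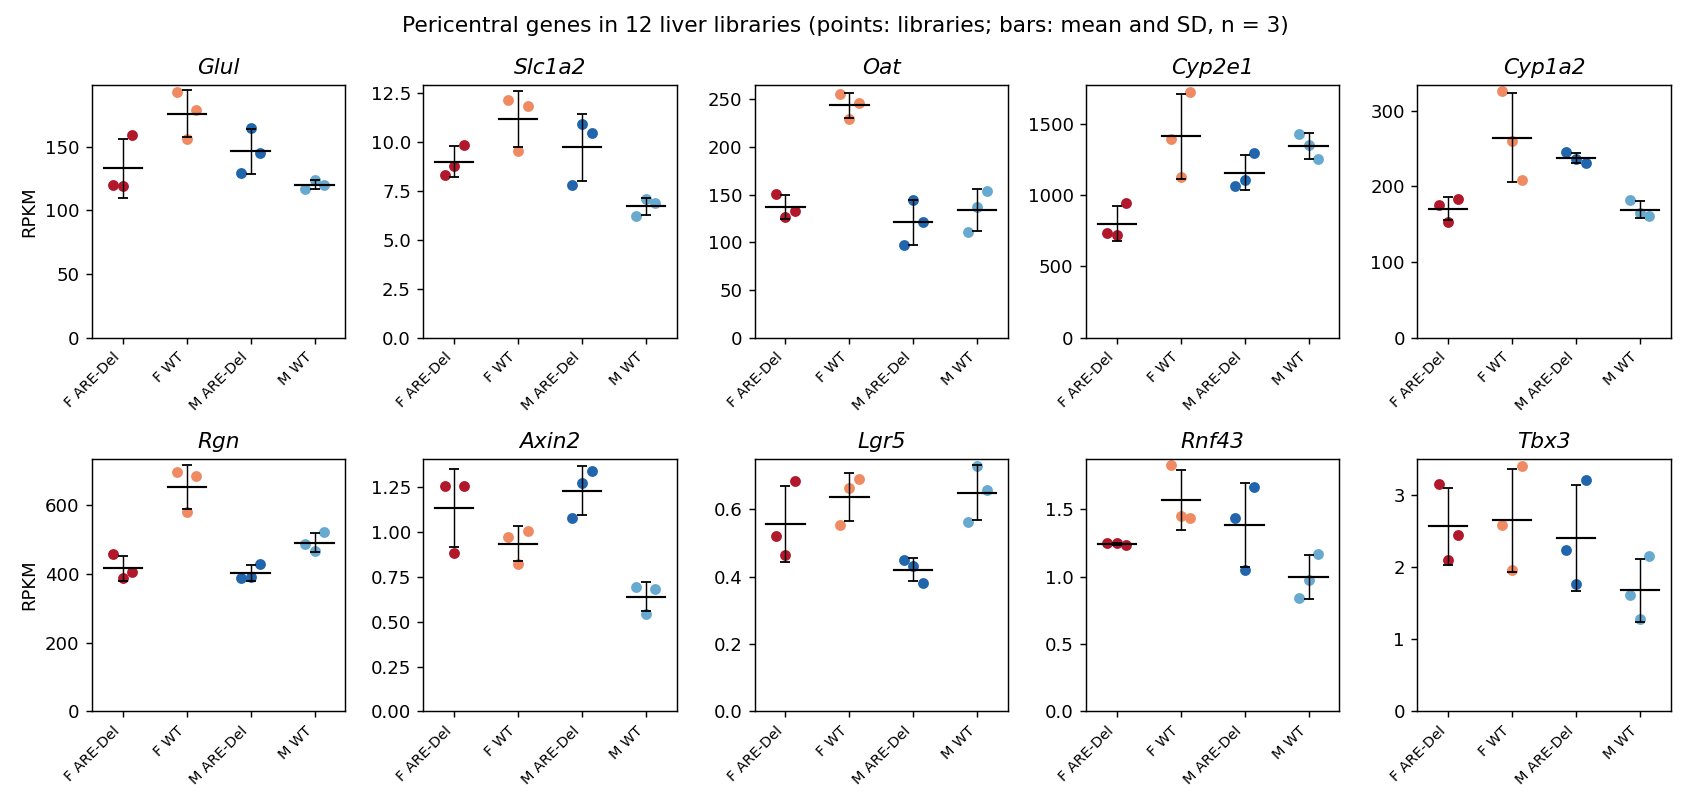
RPKM of the 10 pericentral genes (vertical axis from 0, own scale per gene) in the livers of female (F) and male (M) ARE-Del and WT mice. Points are libraries and bars the mean and SD of 3. Oat, Cyp2e1, Cyp1a2 and Rgn are lower in all female ARE-Del livers than in all female WT livers, while Cyp1a2, Slc1a2 and Axin2 are higher in all male ARE-Del livers than in all male WT livers.

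Promoter sequence was compared because the genes are grouped by a shared signal. RefSeq windows of the GRCm38.p6 assembly were matched for 7 of the 10 genes, while the RPKM values were made on mm9. The 250 bases before the transcription start were searched on both strands for CTTTGA, the core of the site that the TCF and LEF partners of β-catenin bind. The core was in 13.8% of 32851 RefSeq promoter windows of this length. It was in the windows of Slc1a2, Cyp2e1 and Cyp1a2 and not in those of Glul, Oat, Axin2 and Rnf43. Slc1a2 held it on the opposite strand 206 to 201 bases before the start and on the gene's own strand at 77 to 72 bases. Cyp2e1 held it on its own strand at 135 to 130 bases, and Cyp1a2 on the opposite strand at 243 to 238 bases. GCGTG, the core bound by the aryl hydrocarbon receptor that drives Cyp1a2, was in 28.2% of windows and among the 7 genes only in that of Rnf43. A match describes letters in a window and does not show binding. The 3 windows with CTTTGA are printed with that core, or its reverse complement TCAAAG, in capitals. Axin2, a well-known β-catenin target, is printed as a window without it. Each sequence runs 5′ to 3′ on the gene's strand and ends at the base before the start. The windows lie at chr2:102706188-102706437 on the plus strand for Slc1a2, chr7:140763569-140763818 on the plus strand for Cyp2e1, chr9:57683656-57683905 on the minus strand for Cyp1a2 and chr11:108920099-108920348 on the plus strand for Axin2.
Slc1a2: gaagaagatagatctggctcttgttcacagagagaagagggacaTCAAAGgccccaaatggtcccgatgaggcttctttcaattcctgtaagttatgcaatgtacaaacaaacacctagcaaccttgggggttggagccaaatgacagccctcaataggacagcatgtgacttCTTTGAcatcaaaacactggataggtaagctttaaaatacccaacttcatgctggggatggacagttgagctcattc
Cyp2e1: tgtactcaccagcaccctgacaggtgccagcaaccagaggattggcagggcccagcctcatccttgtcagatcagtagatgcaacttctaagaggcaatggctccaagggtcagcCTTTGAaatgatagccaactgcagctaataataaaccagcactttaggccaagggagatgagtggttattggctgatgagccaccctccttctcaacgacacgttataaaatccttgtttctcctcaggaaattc
Cyp1a2: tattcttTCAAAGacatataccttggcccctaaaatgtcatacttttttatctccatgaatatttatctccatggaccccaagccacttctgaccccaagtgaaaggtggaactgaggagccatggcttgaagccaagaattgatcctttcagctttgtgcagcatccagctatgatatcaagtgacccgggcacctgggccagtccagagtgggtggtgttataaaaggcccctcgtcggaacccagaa
Axin2: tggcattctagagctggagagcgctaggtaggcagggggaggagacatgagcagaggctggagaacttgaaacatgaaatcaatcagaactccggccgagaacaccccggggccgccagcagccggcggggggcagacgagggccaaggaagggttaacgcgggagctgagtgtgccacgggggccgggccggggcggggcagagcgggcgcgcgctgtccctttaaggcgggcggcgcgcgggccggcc

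Glul encodes glutamine synthetase, which joins ammonia to glutamate and is found in the hepatocytes that line the central vein. It had 120.0, 119 and 159 RPKM in female ARE-Del livers, against 193, 156 and 179 RPKM in female WT livers. In males it had 129, 165 and 145 RPKM in ARE-Del livers, against 117, 124 and 119.9 RPKM in WT livers. The female groups overlapped through female ARE-Del 3 and female WT 2, while all male ARE-Del livers were above all male WT livers. Slc1a2, the glutamate transporter of the same cells, had 8.31, 8.77 and 9.84 RPKM in female ARE-Del livers, against 12.1, 9.54 and 11.8 RPKM in female WT livers. The male values were 7.77, 10.9 and 10.5 RPKM in ARE-Del livers, against 6.23, 7.06 and 6.86 RPKM in WT livers. Its groups overlapped in females and did not in males, as for Glul. Oat encodes ornithine aminotransferase, which makes glutamate semialdehyde from ornithine. It had 151, 127 and 133 RPKM in female ARE-Del livers, against 256, 229 and 246 RPKM in female WT livers. In males it had 96.9, 145 and 121 RPKM in ARE-Del livers, against 110.3, 137 and 154 RPKM in WT livers. The female groups were far apart and the male groups overlapped.

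Cyp2e1, the P450 that oxidises ethanol and acetaminophen, had 733, 724 and 945 RPKM in female ARE-Del livers, against 1398, 1126 and 1722 RPKM in female WT livers. The male values were 1068, 1109 and 1299.7 RPKM in ARE-Del livers, against 1430.7, 1350.1 and 1252 RPKM in WT livers. The lowest values of all 12 livers were those of the 3 female ARE-Del mice. Cyp1a2, which metabolises caffeine and aromatic amines and is induced through the aryl hydrocarbon receptor, had 176, 153 and 183 RPKM in female ARE-Del livers, against 325, 259 and 209 RPKM in female WT livers. In males it had 245, 236 and 231 RPKM in ARE-Del livers, against 182, 165 and 160.4 RPKM in WT livers. Genotype separated the livers of each sex without overlap, in opposite directions. Rgn encodes regucalcin, a calcium-binding protein that also acts in vitamin C synthesis in the mouse. It had 457, 387 and 406 RPKM in female ARE-Del livers, against 696, 579 and 684 RPKM in female WT livers. The male values were 386, 390.4 and 427 RPKM in ARE-Del livers, against 485, 465 and 520.1 RPKM in WT livers. All ARE-Del livers of a sex were below all WT livers of that sex.

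Axin2 encodes a scaffold of the complex that destroys β-catenin and is itself a β-catenin target, a negative feedback. It had 1.26, 0.882 and 1.26 RPKM in female ARE-Del livers, against 0.972, 0.824 and 1.01 RPKM in female WT livers. In males it had 1.08, 1.28 and 1.34 RPKM in ARE-Del livers, against 0.692, 0.545 and 0.684 RPKM in WT livers. Only the male groups were apart, and the female overlap came from the library labelled female ARE-Del 2. Lgr5, a receptor for R-spondins, had 0.520, 0.466 and 0.684 RPKM in female ARE-Del livers, against 0.555, 0.664 and 0.692 RPKM in female WT livers. The male values were 0.448, 0.432 and 0.382 RPKM in ARE-Del livers, against 0.564, 0.729 and 0.658 RPKM in WT livers. It reached 0.5 RPKM in 2 female ARE-Del, 3 female WT, 0 male ARE-Del and 3 male WT livers, so it passed the filter on low values through the other 3 groups.

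Rnf43, a ubiquitin ligase that removes Frizzled receptors from the cell surface, had 1.25, 1.25 and 1.24 RPKM in female ARE-Del livers, against 1.83, 1.45 and 1.43 RPKM in female WT livers. In males it had 1.43, 1.05 and 1.66 RPKM in ARE-Del livers, against 0.844, 0.972 and 1.17 RPKM in WT livers. The female groups did not overlap and the male groups did. Tbx3, a transcription factor that β-catenin activates in liver, had 3.16, 2.10 and 2.44 RPKM in female ARE-Del livers, against 2.59, 1.97 and 3.40 RPKM in female WT livers. The male values were 2.24, 1.76 and 3.21 RPKM in ARE-Del livers, against 1.62, 1.28 and 2.15 RPKM in WT livers. Its groups overlapped in both sexes.

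In female livers, Oat, Cyp2e1, Cyp1a2, Rgn and Glul fell in ARE-Del mice, which is 5 of the 10 pericentral genes, and none rose. Over all 10568 genes tested, 5.53% fell and 25.8% rose, 31.3% in all. A gene is said here to rise or fall when its Benjamini-Hochberg adjusted p in limma, fitted over all tested genes, is below 0.05. The median log2 change of the 10 genes was -0.35, against 0.09 over all genes tested. At an unadjusted p below 0.05, 6 were lower and 0 higher.

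Oat averaged 137 ± 12.6 RPKM in female ARE-Del livers and 244 ± 13.4 RPKM in female WT livers (SD, n = 3 each), a ratio of 0.561. Its log2 change was -0.83 ± 0.15 (SE, limma adjusted p = 0.00105). Cyp2e1 averaged 801 ± 125 RPKM in female ARE-Del livers and 1416 ± 299 RPKM in female WT livers, with a ratio of 0.566 and a log2 change of -0.81 ± 0.16 (limma adjusted p = 0.00161). No other of the 10 genes had a lower ratio in either sex than these. Rgn averaged 416 ± 36.4 RPKM in female ARE-Del livers and 653 ± 64.3 RPKM in female WT livers. Its log2 change of -0.65 ± 0.10 had the smallest adjusted p of the 10 genes in limma (0.000341). Cyp1a2 averaged 171 ± 15.3 RPKM in female ARE-Del livers and 264 ± 58.6 RPKM in female WT livers, with a log2 change of -0.61 ± 0.14 (limma adjusted p = 0.0045). The calls for Oat, Cyp2e1, Cyp1a2 and Rgn held in each of the 21 alternative analyses.

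Glul averaged 133 ± 22.8 RPKM in female ARE-Del livers and 176 ± 18.5 RPKM in female WT livers, with a log2 change of -0.41 ± 0.13 (limma adjusted p = 0.028). That call was lost without female ARE-Del 1 (adjusted p = 0.102), the library labelled female ARE-Del 2 (0.0921), female WT 1 (0.097) or female WT 3 (0.0703). It was also lost with no filter on low values (0.0519) and in a fit of the female groups alone (0.0707). Slc1a2 averaged 8.98 ± 0.787 RPKM in female ARE-Del livers and 11.2 ± 1.41 RPKM in female WT livers. Its log2 change of -0.28 ± 0.12 did not pass (limma adjusted p = 0.0957). Rnf43 had a log2 change of -0.19 ± 0.10 (limma adjusted p = 0.153), Lgr5 of -0.07 ± 0.06 (0.405), Tbx3 of -0.03 ± 0.18 (0.931) and Axin2 of 0.14 ± 0.08 (0.218). Without the library labelled female ARE-Del 2, the change of Axin2 was 0.23 and passed (limma adjusted p = 0.0378). All libraries of female ARE-Del mice were below all those of female WT mice for Oat, Cyp2e1, Cyp1a2, Rgn and Rnf43, 5 of 10 genes against 8.66% of all genes tested. The reverse separation was seen for 0 of 10 genes and for 34.9% of all genes tested. Scaling of the libraries by the median of ratios moved the median of all genes by -0.12. Of the pericentral genes 0 then rose and 7 fell, against 16.9% and 19.3% of all genes tested. Quantile normalization moved the median by -0.16, with 0 rising and 8 falling against 15.3% and 23.6%. The added genes were Slc1a2 and Rnf43 under both and Lgr5 under the second.

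In male livers the genes changed in both directions. Axin2, Slc1a2 and Cyp1a2 rose and Lgr5 fell in ARE-Del mice. The 3 that rose compare with 19.5% of all genes tested, and the 1 that fell with 2.04%. Together, 4 of 10 passed, against 21.5% of all genes tested. The median log2 change of the 10 genes was 0.26, against 0.10 over all genes tested.

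Axin2 averaged 1.23 ± 0.137 RPKM in male ARE-Del livers and 0.640 ± 0.0825 RPKM in male WT livers, a ratio of 1.93. Its log2 change, damped at this low level by the pseudocount of 1, was 0.44 ± 0.08 (limma adjusted p = 0.002), and the call held in each alternative analysis. Slc1a2 averaged 9.72 ± 1.70 RPKM in male ARE-Del livers and 6.71 ± 0.436 RPKM in male WT livers, with a log2 change of 0.46 ± 0.12 (limma adjusted p = 0.0177). Cyp1a2 averaged 237 ± 6.82 RPKM in male ARE-Del livers and 169 ± 11.4 RPKM in male WT livers, with a log2 change of 0.49 ± 0.14 (limma adjusted p = 0.0241). Lgr5 averaged 0.421 ± 0.0344 RPKM in male ARE-Del livers and 0.650 ± 0.0830 RPKM in male WT livers, a ratio of 0.647. Its log2 change was -0.22 ± 0.06 (limma adjusted p = 0.0306). The calls for Lgr5 and Cyp1a2 were both lost without male ARE-Del 1, male ARE-Del 2, male ARE-Del 3, male WT 2 or male WT 3. For Lgr5 the limma adjusted p was then 0.0554, 0.0634, 0.0941, 0.0938 and 0.082, in that order. Slc1a2 lost its call without male ARE-Del 2, male ARE-Del 3 or male WT 1. Leaving out a library took the count of called genes to 2 without male ARE-Del 1, male ARE-Del 2, male WT 2 or male WT 3, and to 1, Axin2, without male ARE-Del 3.

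Glul averaged 146 ± 17.6 RPKM in male ARE-Del livers and 120.1 ± 3.55 RPKM in male WT livers, and its log2 change of 0.28 ± 0.13 did not pass (limma adjusted p = 0.141). Rgn averaged 401 ± 22.6 RPKM in male ARE-Del livers and 490.0 ± 28.0 RPKM in male WT livers, with a log2 change of -0.29 ± 0.10 (limma adjusted p = 0.0593). Oat had a log2 change of -0.15 ± 0.15 (limma adjusted p = 0.501), Cyp2e1 of -0.22 ± 0.16 (0.346), Rnf43 of 0.25 ± 0.10 (0.0822) and Tbx3 of 0.33 ± 0.18 (0.211). The male groups did not overlap for 6 genes. ARE-Del libraries were higher for Glul, Slc1a2, Cyp1a2 and Axin2, 4 of 10 against 36.1% of all genes tested, and lower for Rgn and Lgr5, 2 of 10 against 5.43%. The split of the calls depended on scaling. With median-of-ratios scaling, which moved the median of all genes by -0.12, Axin2 rose while Rgn and Lgr5 fell. With quantile normalization, which moved it by -0.14, Axin2 and Slc1a2 rose while Rgn and Lgr5 fell. Of all genes tested, 11% rose and 10.5% fell under the first, and 8.73% rose and 10.9% fell under the second. The change of Rgn was then -0.47 (limma adjusted p = 0.00349) and -0.40 (0.0184). Cyp1a2 did not pass under either, at 0.31 (0.127) and 0.29 (0.208), nor with no filter (0.057). Slc1a2 did not pass with median-of-ratios scaling, at 0.30 (0.0589).

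**Figure D2:**
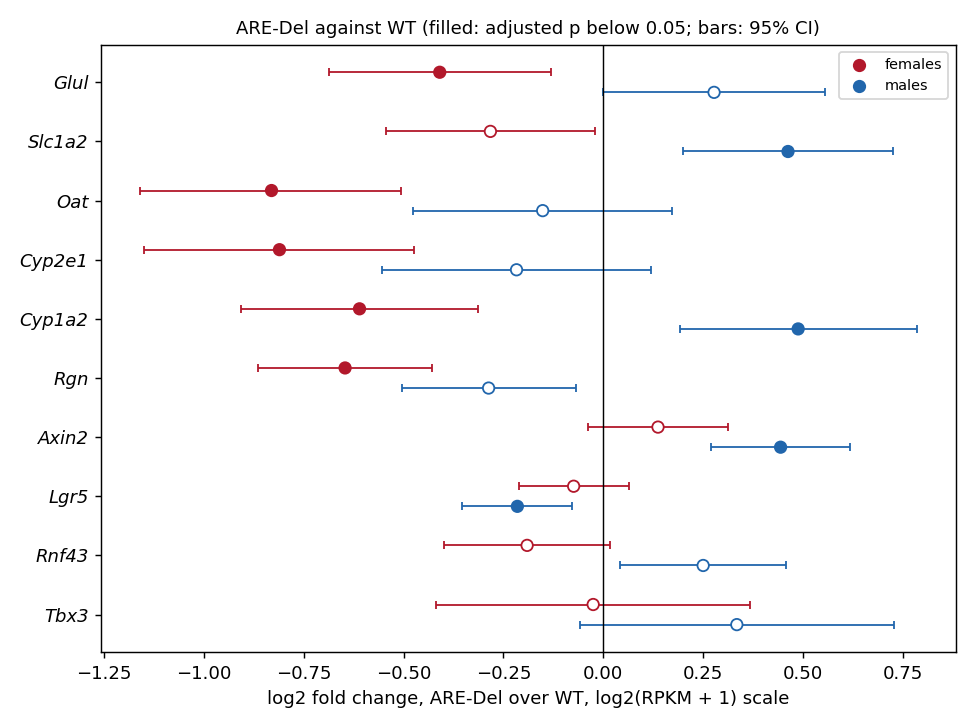
Log2 fold change of ARE-Del over WT on the log2(RPKM + 1) scale (horizontal axis) for each pericentral gene in females and males. Points are limma estimates, filled where the adjusted p is below 0.05, and bars are 95% confidence intervals. The change of Cyp1a2 is -0.61 in females and 0.49 in males.

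The difference between the sexes in the genotype change was tested as an interaction, the female change minus the male change. Cyp1a2 had a value of -1.10 ± 0.19 (limma adjusted p = 0.0378) and was the 1 gene of 10 that passed, against 0.568% of all genes tested. The call was lost in 14 of 21 alternative analyses, among them 9 of the 12 that leave out 1 library, with values between -1.26 and -0.94 and adjusted p between 0.0132 and 0.133. The adjusted p was 0.0586 without the library labelled female ARE-Del 2. The libraries whose loss left the call in place were female ARE-Del 1, female WT 3 and male ARE-Del 3.

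The other pericentral genes did not pass. Slc1a2 had an interaction of -0.75 ± 0.17 (limma adjusted p = 0.0758). It passed with quantile normalization, at -0.73 (0.0479), where Cyp1a2 did not (0.0574), and without male ARE-Del 1, at -0.88 (0.0361). Glul had an interaction of -0.69 ± 0.18 (0.115) and Oat of -0.68 ± 0.21 (0.191). For Cyp2e1 it was -0.59 ± 0.22 (0.285), for Rnf43 -0.44 ± 0.14 (0.185) and for Rgn -0.36 ± 0.14 (0.329). Tbx3 had -0.36 ± 0.26 (0.698), Axin2 -0.31 ± 0.11 (0.289) and Lgr5 0.14 ± 0.09 (0.644). The value was below 0 for 9 of 10 genes, with a median of -0.52 against 0.00043 over all genes tested. At an unadjusted p below 0.05 there were 8 of the 10 and 1231 of the 10568. The 10 values share the same 12 livers.

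WT females and WT males differed in most of these genes. Oat, Slc1a2, Cyp1a2, Glul, Rgn and Rnf43 were higher in WT females, 6 of 10 against 6.72% of all genes tested, and none was lower, against 3.04%. In either direction 9.76% of all genes tested differed. The median log2 difference, females over males, was 0.43 for the 10 genes and 0.04 for all genes tested. At an unadjusted p below 0.05, 8 were higher and 0 lower.

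Oat was 1.82 times as high in WT females, at 244 ± 13.4 RPKM against 134 ± 22.2 RPKM in WT males, with a log2 difference of 0.87 ± 0.15 (limma adjusted p = 0.00304). Slc1a2 differed by 0.65 ± 0.12 on the log2 scale (limma adjusted p = 0.00502), Cyp1a2 by 0.62 ± 0.14 (0.0135) and Glul by 0.54 ± 0.13 (0.0197). Rgn differed by 0.41 ± 0.10 (limma adjusted p = 0.0234) and Rnf43 by 0.36 ± 0.10 (0.0329). Axin2, at 0.24 ± 0.08 (limma adjusted p = 0.0863), and Tbx3, at 0.44 ± 0.18 (0.151), did not pass. Cyp2e1 averaged 1416 ± 299 RPKM in WT females and 1344 ± 89.2 RPKM in WT males, with a log2 difference of 0.05 ± 0.16 (limma adjusted p = 0.861). Lgr5 averaged 0.637 ± 0.0724 RPKM in WT females and 0.650 ± 0.0830 RPKM in WT males (adjusted p = 0.93). All WT female libraries were above all WT male libraries for 7 of 10 genes, the 6 called ones and Axin2, against 18.9% of all genes tested. They were wholly below for 0 of 10, against 9.58%. The count of called genes was 3 without female WT 1 and 3 without male WT 1. Glul and Rnf43 did not pass with no filter (0.0513 and 0.0854) or with quantile normalization (0.147 and 0.0523), and Rgn did not in a fit of the WT groups alone (0.0512). Axin2 passed without the library labelled female ARE-Del 2 (0.0394).

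The difference between this comparison and the same one in ARE-Del mice is the interaction given above, which passed for Cyp1a2 alone of the 10. Cyp2e1 and Cyp1a2 were lower in ARE-Del females than in ARE-Del males, 2 of 10 against 6.02% of all genes tested, and 0 of 10 were higher, against 16.4%. In either direction 22.4% of all genes tested differed. Cyp2e1 averaged 801 ± 125 RPKM in ARE-Del females and 1159 ± 124 RPKM in ARE-Del males, a log2 difference of -0.54 ± 0.16 (limma adjusted p = 0.0265). Cyp1a2 averaged 171 ± 15.3 RPKM in ARE-Del females and 237 ± 6.82 RPKM in ARE-Del males, a log2 difference of -0.48 ± 0.14 (limma adjusted p = 0.0257). Libraries of the sexes did not overlap for either gene, nor for Lgr5, which was higher in ARE-Del females. That makes 2 of 10 genes wholly below, against 13.1% of all genes tested, and 1 of 10 wholly above, against 26.7%. Lgr5 had a log2 difference of 0.13 ± 0.06 (limma adjusted p = 0.169).

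Oat, which differed most between WT females and WT males, averaged 137 ± 12.6 RPKM in ARE-Del females and 121 ± 23.9 RPKM in ARE-Del males (limma adjusted p = 0.394). Glul averaged 133 ± 22.8 RPKM in ARE-Del females and 146 ± 17.6 RPKM in ARE-Del males (adjusted p = 0.456). For Rgn the means were 416 ± 36.4 RPKM in ARE-Del females and 401 ± 22.6 RPKM in ARE-Del males (adjusted p = 0.758). The differences of Slc1a2, Axin2, Rnf43 and Tbx3 lay between -0.09 and 0.08 on the log2 scale and did not pass. This comparison and that of the WT sexes share no library with each other, but each shares all its libraries with the genotype comparisons. Cyp2e1 and Cyp1a2 both lost their call without female ARE-Del 1, the library labelled female ARE-Del 2, male ARE-Del 2 or male ARE-Del 3, which left 0 called. Without male ARE-Del 1 the count was 1.

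**Figure D3:**
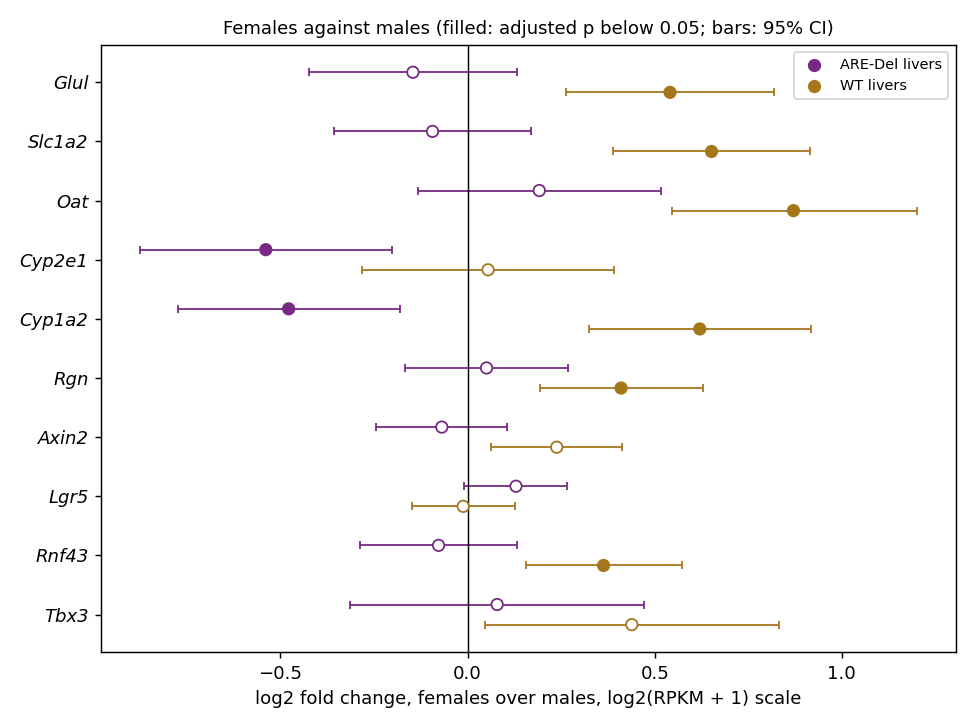
Log2 fold change of females over males on the log2(RPKM + 1) scale (horizontal axis) for each pericentral gene in ARE-Del and WT livers. Points are limma estimates, filled where the adjusted p is below 0.05, and bars are 95% confidence intervals. For Oat the difference is 0.19 in ARE-Del livers and 0.87 in WT livers.

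Other pericentral genes were read from a list of 25, all tested. Counts for this and the following lists, in the values as deposited, stand against shares of all genes tested. These were 25.8% rising and 5.53% falling in females, and 19.5% and 2.04% in males. In females 3 rose and 12 fell, with a median log2 change of -0.38. Among those that fell were Cyp2c37 and Cyp2c29, P450 enzymes of the zone, Nr1i3, the xenobiotic receptor CAR, and Aldh3a2, a fatty aldehyde dehydrogenase. Aldh3a2 had a log2 change of -0.99 ± 0.13 in females (limma adjusted p = 9.16e-05) and of -0.70 ± 0.13 in males (0.00243). Rhbg, the ammonium transporter found beside Glul, Sult5a1, a sulfotransferase, and Slc13a3, a dicarboxylate transporter, rose in both sexes. Rhbg averaged 7.70 ± 0.868 RPKM in female ARE-Del livers against 4.52 ± 0.520 RPKM in female WT livers (limma adjusted p = 0.00596), and 7.18 ± 1.82 RPKM in male ARE-Del livers against 2.60 ± 0.559 RPKM in male WT livers (0.000211). Sult5a1 had a log2 change of 1.17 ± 0.11 in females (limma adjusted p = 5.46e-06) and of 1.82 ± 0.11 in males (4.44e-07). Slc13a3 had a log2 change of 0.67 ± 0.14 in females (limma adjusted p = 0.00259) and of 0.91 ± 0.14 in males (0.000587). Rhbg rose in females, in which Glul fell.

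In males 7 of the 25 rose and 2 fell, with a median log2 change of 0.03. The split was 4 rising and 8 falling with median-of-ratios scaling and 4 and 6 with quantile normalization, while in females it was 3 and 17, and 3 and 15. Of all genes tested, 11% rose and 10.5% fell in males under the first scaling, and 8.73% and 10.9% under the second. In females 16.9% rose and 19.3% fell under the first, and 15.3% and 23.6% under the second. The interaction called 0 of the 25, with 17 at an unadjusted p below 0.05, all with values below 0, and a median of -0.48. With quantile normalization it called 1. In WT mice 12 of the 25 were higher in females and 0 lower (median 0.43), against 6.72% and 3.04% of all genes tested. In ARE-Del mice 3 were higher in females and 7 lower (median -0.07), against 16.4% and 6.02%. Without the library labelled female ARE-Del 2 these last counts were 6 and 7, against 15.7% and 4.1%. In the female genotype comparison without it 3 rose and 10 fell, against 24.8% and 3.84%.

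Periportal genes, a list of 20, all tested, held none that fell in the values as deposited. In females 2 rose, Hal, which starts histidine breakdown, and Cdh1, E-cadherin, a smaller share than the 25.8% of all genes tested, and 0 fell (median 0.07). In males 7 rose and 0 fell (median 0.21), among them Pck1, which controls gluconeogenesis, Sds, serine dehydratase, and Ass1 and Cps1 of the urea cycle. Pck1 averaged 292 ± 79.3 RPKM in male ARE-Del livers and 105 ± 17.2 RPKM in male WT livers. Its log2 change was 0.59 ± 0.21 in females (limma adjusted p = 0.0519) and 1.44 ± 0.21 in males (0.000505). Sds had a log2 change of 0.72 ± 0.33 in females (limma adjusted p = 0.115) and of 1.38 ± 0.33 in males (0.0105), Hsd17b6 of 0.07 ± 0.24 (0.843) and 1.07 ± 0.24 (0.00814), and Cdh1 of 0.90 ± 0.12 (0.000133) and 0.56 ± 0.12 (0.00707). In females the split was 2 rising and 4 falling with median-of-ratios scaling, against 16.9% and 19.3% of all genes tested. It was 4 and 2 with quantile normalization, against 15.3% and 23.6%. In males the split was 6 and 0 under both, against 11% and 10.5% under the first and 8.73% and 10.9% under the second.

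Genes that handle glutamate, glutamine and ornithine, the substrates and products of Glul and Oat, were mixed. Of 18 tested, 4 rose and 3 fell in females (median 0.03), and 4 rose and 1 fell in males (median 0.12). Got1, the cytosolic aspartate aminotransferase, had a log2 change of 0.33 ± 0.17 in females (limma adjusted p = 0.173) and of 1.32 ± 0.17 in males (0.000234). Slc7a2, a carrier of cationic amino acids such as ornithine, had a log2 change of 0.52 ± 0.20 in females (0.0637) and of 0.75 ± 0.20 in males (0.018). Aldh18a1, which acts in proline synthesis, had a log2 change in females of 0.63 ± 0.07 (limma adjusted p = 3.51e-05). It passed the filter through female ARE-Del livers, so its rise is not independent of the filter. Outside that group it reached 0.5 RPKM only in male ARE-Del 1 (0.542). With median-of-ratios scaling 3 rose and 5 fell in females, against 16.9% and 19.3% of all genes tested. In males 3 rose and 1 fell, against 11% and 10.5%. With quantile normalization the splits were 3 and 3 in females, against 15.3% and 23.6%, and 1 and 2 in males, against 8.73% and 10.9%. Without the library labelled female ARE-Del 2, 2 of 17 tested rose and 1 fell in females, against 24.8% and 3.84%.

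**Figure D4:**
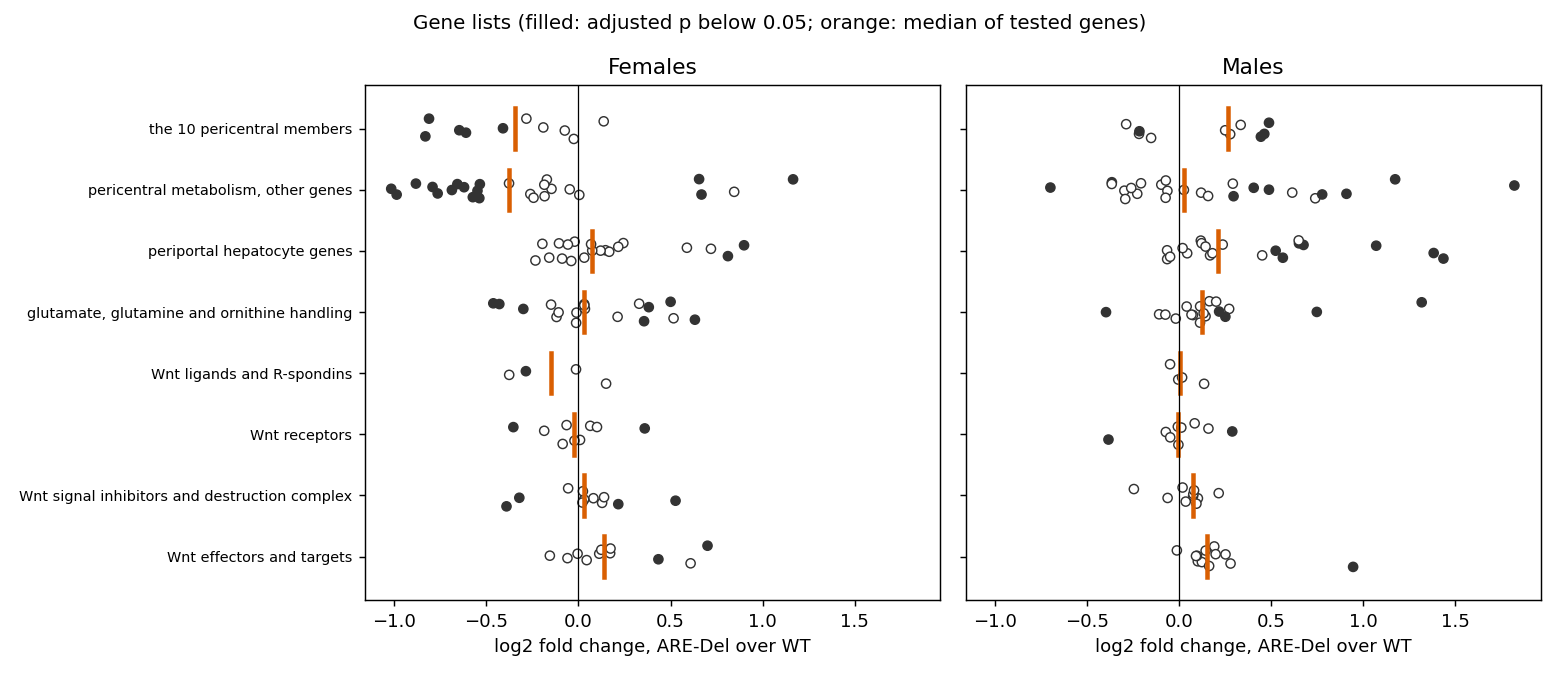
Log2 fold change of ARE-Del over WT (horizontal axis) of the 10 pericentral members and of the tested genes of 7 lists in females and males. Each point is a gene, filled where the limma adjusted p is below 0.05, and the orange bar is the list's median. The median of the other pericentral genes is -0.38 in females and 0.03 in males.

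The Wnt signal that acts on these genes was read from its ligands to its targets. The ligand list of 9 genes held Wnts, R-spondins and the release factors Wls and Porcn, and 4 of the 9 passed the filter. Rspo3, the R-spondin of the central vein, had 0.761, 0.637 and 0.990 RPKM in female ARE-Del livers, against 1.30, 1.15 and 1.11 RPKM in female WT livers. In males it had 1.10, 0.827 and 1.03 RPKM in ARE-Del livers, against 0.924, 1.16 and 1.07 RPKM in WT livers. The female groups did not overlap and Rspo3 fell in females (log2 change -0.29 ± 0.08, limma adjusted p = 0.0171), with a change of -0.05 ± 0.08 in males (0.708). Without the library labelled female ARE-Del 2 none of the 4 tested genes of this list passed in females. Wnt2, the Wnt ligand of central vein and sinusoid, had a log2 change of -0.38 ± 0.16 in females (limma adjusted p = 0.102) and of -0.00431 ± 0.16 in males (0.989). Wls and Porcn, which ligand-secreting cells need to release Wnts, did not pass in either sex, at 0.15 and -0.01 in females and 0.14 and 0.02 in males. The median of the 4 was -0.15 in females and 0.01 in males, and at an unadjusted p below 0.05 2 were lower in females and 0 in males. The sum of 9 endothelial markers was 31.3 to 50.3 RPKM in female ARE-Del livers and 18.7 to 41.0 RPKM in female WT livers, with 3 of 9 rising, against 25.8% of all genes tested. With the library labelled female ARE-Del 2 left out, 1 of 8 rose, against 24.8%. Its part in the ligand values was not tested.

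Among 9 tested receptors, Fzd4 fell and Lrp5 rose in both sexes. Fzd4, a Frizzled receptor, had a log2 change of -0.35 ± 0.09 in females (limma adjusted p = 0.0129) and of -0.38 ± 0.09 in males (0.0134). Lrp5, a Wnt co-receptor, had a log2 change of 0.36 ± 0.07 in females (0.00112) and of 0.29 ± 0.07 in males (0.0082). Fzd1, Fzd5, Fzd7, Fzd8, Lrp6, Lgr4 and Ryk did not pass in either sex. Of 11 tested inhibitors and members of the destruction complex, 2 rose and 2 fell in females and 0 passed in males, where 1 was higher and 1 lower at an unadjusted p below 0.05. Notum and Nkd1, feedback inhibitors that β-catenin induces, fell in females by 0.39 ± 0.11 (limma adjusted p = 0.0148) and by 0.32 ± 0.08 (0.0119) on the log2 scale. Dkk3 and Btrc rose there by 0.53 ± 0.10 (limma adjusted p = 0.00109) and 0.22 ± 0.06 (0.0106). Dkk3 passed the filter through female ARE-Del livers, so its rise is not independent of the filter. Outside that group it reached 0.5 RPKM only in male ARE-Del 1 (0.665).

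Of 12 tested effectors and general targets, Tcf7, Tcf7l2 and Myc rose in females and Ccnd1, cyclin D1, in males. These shares are near or below the 25.8% and 19.5% of all genes tested that rose. Myc had a log2 change of 0.70 ± 0.17 in females (limma adjusted p = 0.0082) and Ccnd1 of 0.94 ± 0.22 in males (0.0101). Tcf7 had a log2 change of 0.43 ± 0.07 in females (0.00055) and Tcf7l2 of 0.15 ± 0.05 (0.029). Both passed the filter through female ARE-Del livers, so their rise is not independent of the filter. Outside that group Tcf7 reached 0.5 RPKM only in female WT 2 (0.544) and Tcf7l2 only in male WT 2 (0.549). Lymphocytes also express Tcf7, and their summed markers were 5.02 to 8.55 RPKM in female ARE-Del livers and 1.33 to 2.10 RPKM in female WT livers. The part of these cells in the Tcf7 value was not tested. Of the feedback genes Axin2, Lgr5, Notum and Nkd1, Axin2 rose and Lgr5 fell in males, while the other two did not pass there. In females the counts of rising and falling genes were 0 and 2 for ligands, 1 and 3 for receptors, 2 and 2 for inhibitors and 2 and 1 for effectors with median-of-ratios scaling. With quantile normalization they were 0 and 3, 1 and 4, 1 and 4, and 2 and 2. Of all genes tested, 16.9% rose and 19.3% fell in females under the first scaling, and 15.3% and 23.6% under the second. In males the counts were 0 and 0 for ligands, and 0 and 1 for receptors and for inhibitors, under both scalings. For effectors in males they were 1 and 0 with median-of-ratios scaling and 1 and 1 with quantile normalization. The shares of all genes tested in males were 11% and 10.5% under the first, and 8.73% and 10.9% under the second. Without the library labelled female ARE-Del 2 the female counts were 2 and 1 for inhibitors and 4 and 0 for effectors. These stand against 24.8% and 3.84% of all genes tested.

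The 10 genes varied together to unequal degrees across the 12 libraries, which share a normalization and the groups' differences. Glul and Slc1a2 had a Pearson r of 0.90 of log2(RPKM + 1), and 0.84 once each group's mean was removed. Oat and Rgn had 0.88, and 0.44 within groups. Glul and Cyp1a2 had 0.75, and 0.26 within groups. Axin2 and Lgr5 had -0.58, and 0.10 within groups. Rgn and Tbx3 had 0.27, and 0.86 within groups. Glul and Slc1a2 are thus the pair of these 5 with a high value by either measure.

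**Figure D5:**
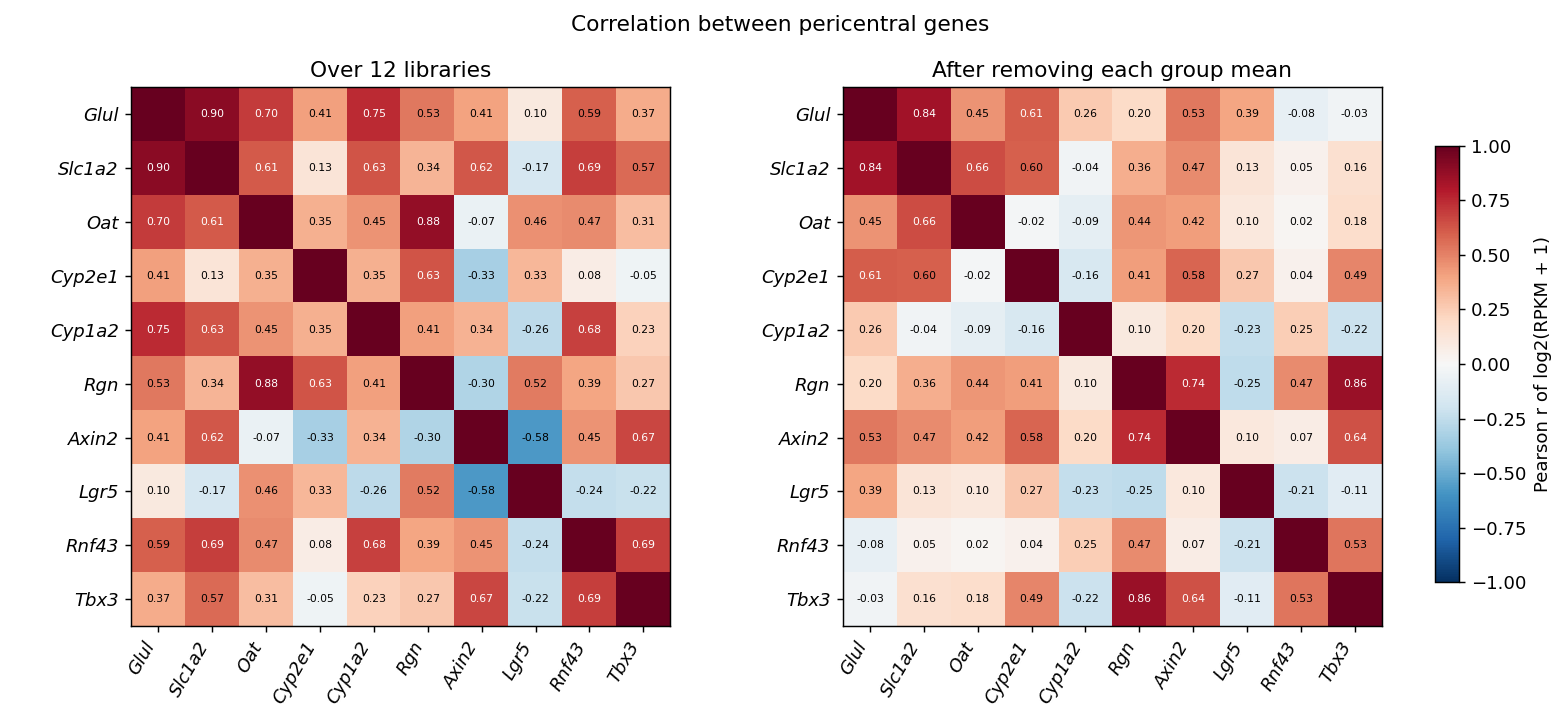
Pearson r of log2(RPKM + 1) between pericentral genes over 12 libraries (left) and after removing the mean of each of the 4 groups (right), as a colour scale from -1 to 1. Glul and Slc1a2 have 0.90 over all libraries and 0.84 within groups.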

How the data were processed

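Liver RNA was extracted with Trizol and made into TruSeq libraries, per the labels' protocols. The submitters' processing notes name Trimmomatic 0.30, TopHat2 2.0.8, Partek, GenomeStudio 6.6 and the mm9 assembly for the RPKM table that the authors deposited. How the notes' tools assigned reads to genes or used strand is not given in the sources used here. RPKM is relative, so a rise of abundant genes lowers the rest, and its depth is unknown beyond the ratio estimate, which used genes below 0.2 RPKM (tolerance 0.02 log2).

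A gene was tested if 3 or more libraries reached 0.5 RPKM (10568 genes). Log2(RPKM + 1) was fitted in limma 3.58.1 (R 4.3.3) over all 12 libraries with 4 group means and 8 residual degrees of freedom, moderated variances that follow the mean, and Benjamini-Hochberg adjustment at 0.05 within each of 5 comparisons. The fit was tested on simulated data. The pseudocount understates changes of genes near or below 1 RPKM. Errors are SD for RPKM and SE for log2 changes. Replicate numbers did not pair the libraries. From each of 9 gene lists and 6 cell type marker lists, all tested genes were counted. Of 125 list entries, 116 matched an identifier, 3 a merged entry and 5 a synonym, and 1 did not match. Of 43 marker entries, 40 matched an identifier and 2 a synonym. The rule names, per list, the 4 genes with the largest mean change among those called, all tested ligands and receptors, and the 5 genes most like Glul, Cyp2e1, Cyp1a2 and Oat. Cyp2c37, Cyp2c29, Nr1i3, Hal, Ass1 and Cps1 were named after their values were seen. Some genes that the rule names are not reported here. The 10 genes and all lists were chosen with earlier results of these data known. Figures were made in matplotlib 3.10.9 with numpy 2.4.6 and pandas 2.3.3 under Python 3.11.15.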

Additional observations from a re-analysis of the deposited data

Results flagged for a closer look

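Cyp1a2 passed the test of a difference between the sexes in its change with genotype, but not in most alternative analyses. In females it averaged 171 ± 15.3 RPKM in ARE-Del livers and 264 ± 58.6 RPKM in WT livers, and in males 237 ± 6.82 RPKM in ARE-Del livers and 169 ± 11.4 RPKM in WT livers (SD, n = 3 each). The female change minus the male change was -1.10 on the log2 scale (limma interaction, adjusted p = 0.0378). The call was lost in 14 of 21 alternatives, among them 9 of the 12 that leave out 1 library, with adjusted p between 0.0132 and 0.133 over the 21. It was 0.0586 without the library labelled female ARE-Del 2. The rise in males alone did not pass under either scaling. All 3 female ARE-Del livers were below, and all 3 male ARE-Del livers above, the WT livers of their sex.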

How the results depend on the processing

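The 21 alternatives were 2 other pseudocounts, 2 other filters, 2 scalings, a fit without the variance trend, one with the replicate block, one on each comparison's own groups, and 12 that leave out a library. Of the log2 values of the 10 genes, 950 kept direction and side of the threshold, 65 lost the call, 17 gained it and 13 reversed. For each result below that moved, the cause was not tested. Pericentral genes called in females numbered 8 with quantile normalization, where 38.9% of all genes tested were called. The interaction called 14 and 15 genes at pseudocounts of 0.1 and 0.5, 30 with no filter, 106 with quantile normalization and 39 without the trend. It called 0 where 6 or more libraries had to reach 1 RPKM, and there 783 had an unadjusted p below 0.05. Of the pericentral genes it called 0 at either pseudocount, 0 with no filter and 0 under the strict filter, with 8 at an unadjusted p below 0.05 in each. Between ARE-Del sexes 0 pericentral genes passed with no filter, with 2 at an unadjusted p below 0.05, and 1 passed with quantile normalization. Leaving out a library, genes called ranged from 2297 to 3272 in females, 1259 (without male WT 1) to 2481 in males, 0 (without male WT 1, with 1193 at an unadjusted p below 0.05) to 74 for the interaction, 525 to 1116 between WT sexes and 1367 to 2494 between ARE-Del sexes. Pericentral genes called ranged from 4 to 6, 1 (without male ARE-Del 3) to 5, 0 to 1, 3 to 7 and 0 to 2 in the same order. Scaling moved the share of calls that were rises. In females it was 82.3% as deposited, 46.7% with median-of-ratios scaling and 39.3% with quantile normalization, and in males 90.5%, 51.2% and 44.5%.

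None of the reversed values passed before or after. Axin2 in females was -0.0434 with quantile normalization, Cyp2e1 between WT sexes was -0.0197 and Rgn between ARE-Del sexes was -0.0299 with median-of-ratios scaling. Leaving out a library, Tbx3 in females ranged from -0.165 to 0.119, with the library labelled female ARE-Del 2 and female WT 3 as those that turned it. Between WT sexes Cyp2e1 ranged from -0.0974 (without female WT 3) to 0.209, and Lgr5 from -0.0498 to 0.0251, turned by female WT 1 and male WT 2. Between ARE-Del sexes Rgn ranged from -0.018 (without female ARE-Del 1) to 0.102, and Tbx3 from -0.0607 to 0.243, turned by female ARE-Del 1 and male ARE-Del 2. There Axin2 ranged from -0.119 to 0.0192 (leaving out the library labelled female ARE-Del 2), and Rnf43 from -0.182 to 0.00711 (without male ARE-Del 3).

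With the replicate block, 32 genes passed the interaction. Same-numbered libraries of different groups had deviations that correlated at -0.29 to 0.25, and in 9 of 36 cases a library correlated best with its own number. Without read counts, how far depth limits each gene was not measured.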

Other observations

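The aryl hydrocarbon receptor drives the best-known induction of Cyp1a2. Of 7 targets and partners of this receptor, 4 were tested, and Cyp1a1, Cyp1b1 and Ahrr were too low. Tiparp, an ADP-ribosyltransferase that the receptor induces, rose by 0.25 ± 0.07 on the log2 scale in females (limma adjusted p = 0.0163) and by 0.25 ± 0.07 in males (0.0244), and the other 3 did not pass. In females 2 of the 4 rose if the library labelled female ARE-Del 2 is left out, against 24.8% of all genes tested. With median-of-ratios scaling 0 rose and 1 fell in females, against 16.9% and 19.3%, and 0 passed in males, against 21.5%. With quantile normalization 0 passed in either sex, against 38.9% in females and 19.6% in males. Of 4 midzonal hepatocyte genes, Igfbp2 rose, by 0.90 ± 0.20 in females (limma adjusted p = 0.00425) and by 0.62 ± 0.20 in males (0.0445). In males it did not pass under either scaling.

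The genes whose log2(RPKM + 1) was most like that of Glul over the 12 libraries were Slc1a2 (Pearson r 0.90), Spg20 (0.89), the merged entry of Rdh1 and Rdh9 (0.89), Narg1l (0.87) and Mosc2 (0.87). For Oat they were Ndrg2 (0.97), 2310007H09Rik (0.97), which is Lhpp of the list of other pericentral genes, the merged entry of Rdh16 and AY053573 (0.97), Crls1 (0.95) and C730036D15Rik (0.95). For Cyp2e1 they included Cmtm4 (0.93), Acot1 (0.92), Akr1c6 (0.92) and Slco1b2 (0.91), of which Akr1c6 and Slco1b2 are on the same list. For Cyp1a2 the values were lower, and the genes included Acot7 (0.84), Cd81 (0.84), Nfix (0.77) and Magi1 (0.76). These values share the groups' differences and are a description of the 12 libraries.

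Markers of cholangiocytes, 2 of 5 tested, summed to 7.49 to 12.8 RPKM in female ARE-Del livers and 5.84 to 8.07 RPKM in female WT livers. In males the sum was 7.87 to 14.8 RPKM in ARE-Del livers and 6.82 to 7.62 RPKM in WT livers. Stellate cell markers summed to 23.0 to 23.5 RPKM in female ARE-Del livers and 19.3 to 21.4 RPKM in female WT livers, and in males to 16.2 to 23.5 RPKM in ARE-Del livers and 10.95 to 16.0 RPKM in WT livers.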
